A study of Homo sapiens with 6 samples.

Results

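The 9 genes described here encode glutathione S-transferases expressed in HepG2, an established cell line from a human liver carcinoma. They were taken by symbol from the deposited log2 FPKM table and joined by gene identifier to the counts, 9 of 60504 genes in all. Cells had been kept for 48 h either with the plant diterpenoid oridonin at 10 µM or with the solvent DMSO at 0.1%, and 3 RNA libraries were sequenced per treatment. How much DMSO the oridonin wells held is not stated, nor whether the 3 samples of a treatment were separate cultures. The p-values therefore measure only the spread among these samples, and that spread may be technical. The question the design allows is which of these transcripts differed with oridonin at this dose and time.

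Glutathione transferases join the thiol of glutathione to electrophilic drugs, aldehydes and lipid peroxides, and the conjugates leave the cell through ABC transporters. The soluble enzymes fall into classes by sequence, here alpha (GSTA1, GSTA2, GSTA4), mu (GSTM4), omega (GSTO1) and the mitochondrial and peroxisomal kappa enzyme (GSTK1). MGST1, MGST2 and MGST3 belong to an unrelated membrane-bound family. In liver the alpha class is abundant, and several genes of the family are known targets of the transcription factor NRF2, which acts at antioxidant response elements.

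GSTA1 and GSTA2 lie on the minus strand of chromosome 6, with 28.1 kb between them on hg38 (GSTA1, 52791664 to 52803910; GSTA2, 52750089 to 52763569). Their coding sequences, each 666 bases without the stop codon, differed at 22 positions, an identity of 96.7% in the GENCODE transcripts. Upstream of the first annotated exon they are nearly the same as well. The stretches below, from RefSeq on GRCh38.p14 at chr6:52803911-52804066 and chr6:52763570-52763725, minus strand, are shown because these genes had the largest responses among the 9. Capitals mark the 4 of 156 bases at which they differ.
GSTA1: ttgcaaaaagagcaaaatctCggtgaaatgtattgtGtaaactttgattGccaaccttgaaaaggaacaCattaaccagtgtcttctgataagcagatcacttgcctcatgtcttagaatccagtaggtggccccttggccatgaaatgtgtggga
GSTA2: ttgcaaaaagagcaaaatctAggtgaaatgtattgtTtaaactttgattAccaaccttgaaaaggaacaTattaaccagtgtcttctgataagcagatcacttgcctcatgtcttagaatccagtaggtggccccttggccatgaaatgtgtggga

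Of the 9 genes, 8 had a RefSeq window of 300 bases, 250 before the start and 50 after it, and each was searched on both strands for short motifs, of which 2 are given here. Other motif matches, in GSTA1 and GSTA2 among others, are not reported here. TGACNNNGC, the core of the antioxidant response element, was found in 13.4% of all 35116 such windows. Among the 8 genes it matched in the windows of GSTA4 and GSTO1 and in the third of the 3 windows of MGST1, and in neither GSTA1 nor GSTA2. GCGTG, the core of the element bound by the aryl hydrocarbon receptor, was found in 36.5% of all windows and matched in GSTM4 and MGST3. These matches are letters in a short window and describe no binding.

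GSTA1 rose 2.90-fold and GSTA2 5.11-fold with oridonin, MGST1 1.45-fold and GSTO1 1.14-fold, while GSTM4 fell by 25.6%. All 9 genes passed the filter on low counts. By edgeR's quasi-likelihood test at a Benjamini-Hochberg adjusted p under 0.05, 4 of the 9 were called higher and 1 lower, and 4 were not called. Over all 15116 genes tested, 20.6% were called higher, 21.3% lower and 41.9% in either direction, so that 5 called of 9 is near the share of genes at large. The median log2 fold change was 0.08 over the 9 and 0.01 over all tested genes. Among the 9, 6 genes had libraries that did not overlap between treatments, 4 of them higher with oridonin and 2 lower, beside 26.0% and 25.6% of all tested genes. The 5 calls held with the other scalings, filters and tools tried and without any single library, with an exception for GSTO1 given further on.

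**Figure D1:**
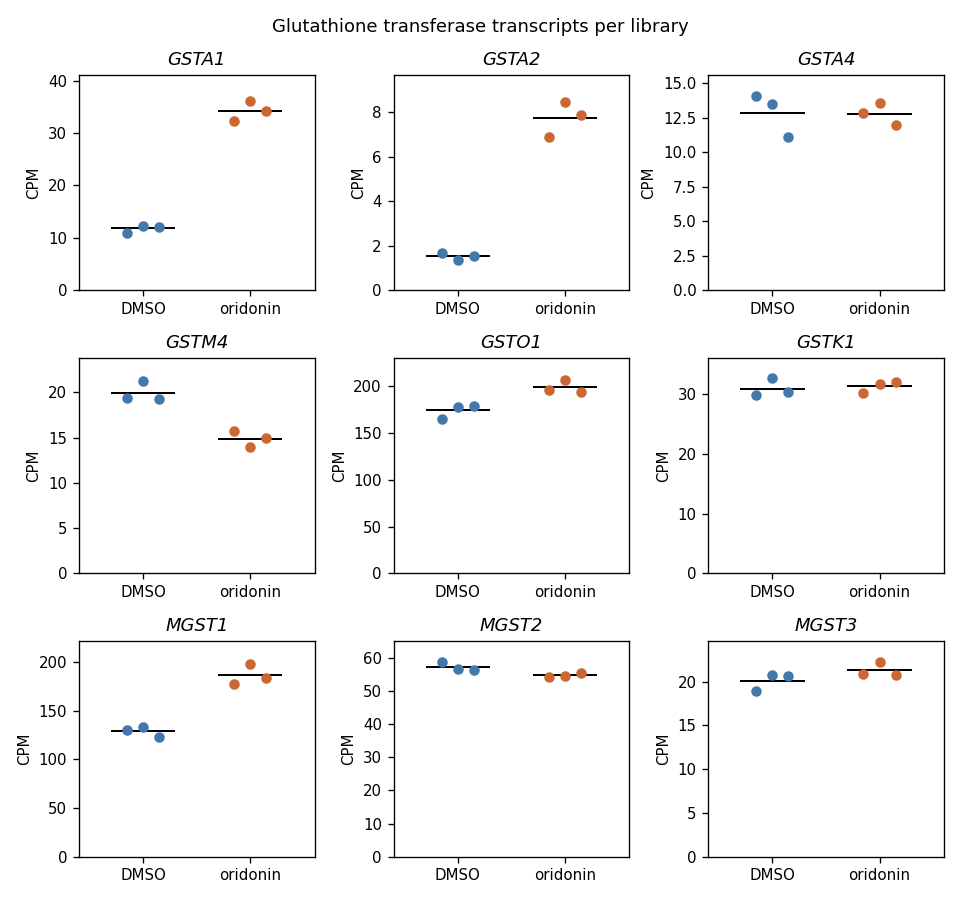
CPM of each of the 9 transferases, 1 panel per gene with its own axis from 0; each point is 1 library and the bar is the mean of 3. The oridonin points of GSTA1, GSTA2, MGST1 and GSTO1 lie above all their DMSO points, and those of GSTM4 lie below.

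GSTA1 is the main alpha class enzyme of the human hepatocyte and conjugates a wide range of drugs and peroxidation products. In CPM (counts divided by the library size after TMM scaling, a standard correction for composition), it stood at 11.0, 12.3 and 12.1 in DMSO libraries 1 to 3 and at 32.3, 36.1 and 34.2 in oridonin libraries 1 to 3. Every oridonin library was far above every DMSO library, and within a treatment the highest library was 1.12 times the lowest. The log2 fold change was 1.53 ± 0.07 (SE, n = 3 per group, edgeR adjusted p = 1.23e-10). When the 9416 tested genes whose mean reached 10 CPM in either treatment were ordered by log2 fold change, GSTA1 ranked 34th from the top.

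GSTA2 encodes a close relative with a similar set of substrates and had the lowest FPKM, a level per gene length, of the 9 in DMSO. Its level was 1.69, 1.33 and 1.53 CPM in DMSO and 6.88, 8.44 and 7.87 CPM in oridonin. The groups did not overlap, with a wide gap between the highest DMSO and the lowest oridonin library. Its log2 fold change was 2.35 ± 0.15 (SE, n = 3 per group, edgeR adjusted p = 2.27e-09), and 0.377% of tested genes had a larger change in size. Of the counts assigned to GSTA1 and GSTA2 together, GSTA2 took 13.3%, 9.82% and 11.3% in DMSO and 17.5%, 18.9% and 18.7% in oridonin. These shares did not overlap between treatments; whether the responses of GSTA1 and GSTA2 differ was not tested beyond that.

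Because the paralogs are alike, reads could be shared between them. In the GENCODE transcripts, 26.2% of the distinct 50-base windows of GSTA1 and 18.4% of those of GSTA2 also occur in another gene on either strand. At 100 bases the shares were 9.85% and 9.06%, all of it between GSTA1 and GSTA2. The sources state neither the read length nor the handling of shared reads, so the split between them is uncertain. With the counts of 8 alpha class genes and pseudogenes summed to a single feature, the class changed by 1.07 ± 0.06 on the log2 scale (SE, edgeR adjusted p = 1.40e-09), a sum that also holds GSTA4. That sum was 26.7, 27.4 and 24.9 CPM in DMSO and 52.5, 58.5 and 54.5 CPM in oridonin.

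GSTA4, the alpha class enzyme with high activity toward 4-hydroxynonenal, an aldehyde from lipid peroxidation, was not called. It lies 174 kb from GSTA1 and shares no 50-base window with any other gene. Its level was 14.03, 13.5 and 11.1 CPM in DMSO and 12.8, 13.6 and 11.98 CPM in oridonin, and the groups overlapped. The log2 fold change was -0.00 ± 0.10 (SE, n = 3 per group, edgeR adjusted p = 0.981), with a 95% interval from -0.19 to 0.18, and its sign changed with the scaling, at 0.08 with total counts only.

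GSTM4 belongs to the mu class and was the only one of the 9 genes called lower. It had 19.4, 21.3 and 19.2 CPM in DMSO and 15.7, 13.96 and 14.96 CPM in oridonin, with no overlap. Its log2 fold change was -0.43 ± 0.08 (SE, n = 3 per group, edgeR adjusted p = 0.000289). GSTM4 overlaps GSTM2 on the same strand of chromosome 1, and 17.0% of its 50-base windows occur in another gene, most often GSTM2. With the 5 mu class features that had counts summed, among them the pseudogene GSTM2P1, the class changed by -0.21 ± 0.06 on the log2 scale (SE, edgeR adjusted p = 0.0101). GSTM3, the other mu class gene above 10 CPM, was not called, with 25.0 ± 0.891 CPM under DMSO and 24.5 ± 1.97 under oridonin (SD, n = 3).

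GSTO1, which reduces dehydroascorbate and methylated arsenicals and joins glutathione through a cysteine, had the highest FPKM of the family. Its CPM was 165, 178 and 179 in DMSO and 196, 207 and 194 in oridonin, without overlap. The rise was small, at a log2 fold change of 0.19 ± 0.05 (SE, n = 3 per group, edgeR adjusted p = 0.00500), and 54.1% of tested genes had a change at least that large in size. GSTK1 had 29.9 to 32.7 CPM in DMSO and 30.2 to 32.1 CPM in oridonin and was not called (log2 fold change 0.01, 95% interval -0.11 to 0.14, edgeR adjusted p = 0.884). The sign for GSTK1 was negative in 4 of 16 alternative settings, at -0.04 to -0.00.

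Of the membrane-bound enzymes, MGST1 protects the endoplasmic reticulum and outer mitochondrial membrane against lipid peroxides. It stood at 130.0, 133 and 123 CPM in DMSO and at 178, 198 and 184 CPM in oridonin. No DMSO library reached the lowest oridonin library, and the log2 fold change was 0.53 ± 0.05 (SE, n = 3 per group, edgeR adjusted p = 4.64e-07). MGST2, which can make leukotriene C4, had 56.4 to 59.1 CPM in DMSO and 54.5 to 55.5 CPM in oridonin. Its libraries did not overlap between treatments, as in 51.6% of all tested genes and in 6 of these 9, but it was not called (log2 fold change -0.07, 95% interval -0.17 to 0.04, edgeR adjusted p = 0.332). Its sign was positive, at 0.01, with total counts only. MGST3 had 19.0 to 20.8 CPM in DMSO and 20.7 to 22.2 CPM in oridonin, at a log2 fold change of 0.08 with a 95% interval from -0.06 to 0.22 (edgeR adjusted p = 0.393).

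**Figure D2:**
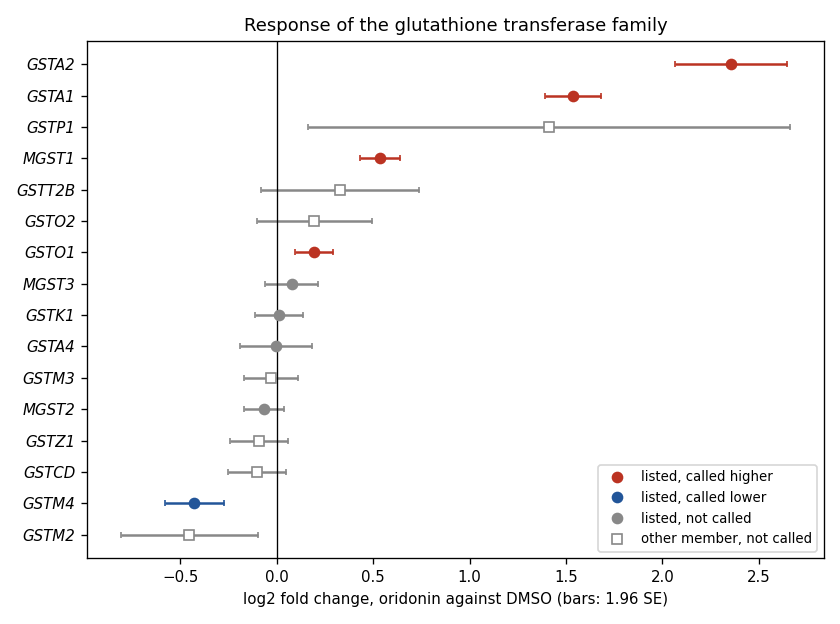
Log2 fold change of each tested family member, oridonin against DMSO, with bars for the 95% interval; filled circles are the 9 listed genes and open squares the other members. GSTA2 (2.35) and GSTA1 (1.53) lie at the top, and GSTP1, at 1.41, has the widest bar and was not called. Its bar leaves out 0, though its edgeR p before adjustment was 0.0735.

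Levels can be compared between genes only per length, for which the deposited FPKM (fragments scaled to gene length and library size) were used. The deposited gene length counts all annotated exons, from 1019 bases for GSTA1 to 8401 for MGST3, so genes with many alternative exons have lower FPKM. In DMSO the order of the mean FPKM was GSTO1 at 102, MGST2 at 17.9, MGST1 at 17.2, GSTA1 at 11.5, GSTK1 at 7.28, GSTA4 at 5.87, GSTM4 at 3.63, MGST3 at 2.38 and GSTA2 at 1.15. In that order the ranges of neighbours were separate except for MGST2 and MGST1. In oridonin GSTA1 was second, at 33.8 ± 2.11 FPKM (SD, n = 3), ahead of MGST1 at 25.2 ± 1.41 FPKM. GSTA2 moved to 5.92 ± 0.618 FPKM, beside GSTA4 at 5.90 ± 0.351 FPKM, and the ranges of these neighbours overlapped, as did those of GSTM4 and MGST3.

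The summed FPKM of the 18 family genes with a value was 183 ± 6.35 in DMSO and 234 ± 9.94 in oridonin (SD, n = 3). GSTO1 took 55.8% of that sum in DMSO and 50.6% in oridonin, and GSTA1 took 6.26% and 14.4%. GSTA1, GSTA2 and GSTA4 together took 10.1% and 19.5%, and the 3 membrane-bound enzymes 20.5% and 19.3%. The alpha class thus held a larger part of the family's transcripts in oridonin, and the membrane-bound part stayed within about 1 percentage point. These sums are descriptions and were not tested.

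**Figure D3:**
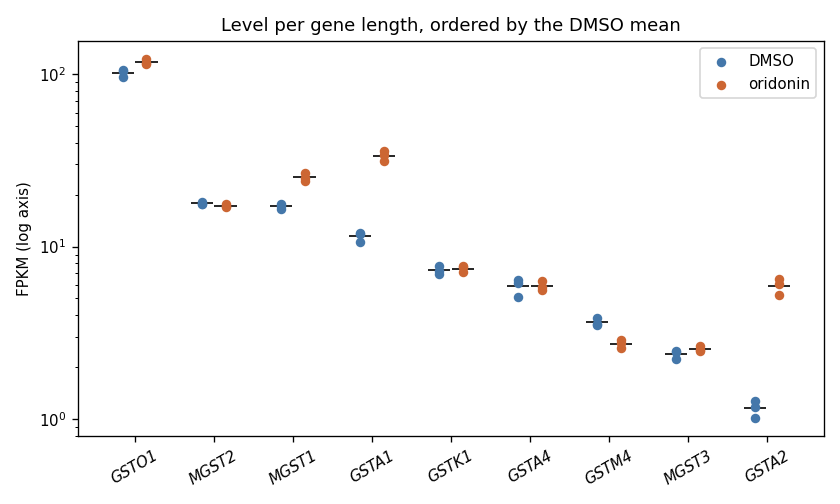
FPKM of the 9 transferases on a log axis, ordered by the DMSO mean; each point is 1 library and the bars are means of 3. GSTO1 is above 96 FPKM in every library, and GSTA1 passes MGST2 and MGST1 in oridonin.

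The rest of the family had low levels or was not called. Of 16 other transferase symbols, 15 matched a gene and 7 passed the filter, and none of the 7 was called in either direction by edgeR, nor by DESeq2 or limma. Before adjustment, 1 of the 7, GSTM2, was under 0.05 by edgeR. GSTZ1, which isomerises maleylacetoacetate in tyrosine breakdown, GSTCD and GSTO2 had adjusted p of 0.369, 0.310 and 0.324, and GSTT2B 0.225. GSTM2 averaged 2.63 ± 0.432 CPM under DMSO and 1.93 ± 0.251 under oridonin (SD, n = 3), at a log2 fold change of -0.45 (edgeR adjusted p = 0.0539). It was called lower in 5 of 16 alternative settings, among them those without DMSO replicate 1 (-0.53), DMSO replicate 3 (-0.51) or oridonin replicate 1 (-0.55). GSTA3, GSTA5, GSTM1 and HPGDS had 0 counts in each library, where 3 counts would be 0.0976 to 0.135 CPM of total counts, and GSTM5, GSTT2, LTC4S and PTGES had too few to be tested.

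GSTP1, the pi class enzyme common in epithelial and blood cells and little expressed in HepG2, was uneven. It was at 0.0911, 1.40 and 1.75 CPM in DMSO and 1.85, 3.60 and 3.72 CPM in oridonin. The lowest library held 2 counts, and the groups did not overlap, though the highest DMSO and the lowest oridonin library were close. Its log2 fold change was 1.41 ± 0.64 (SE, n = 3 per group, edgeR adjusted p = 0.139), and without DMSO replicate 1 it was called at 0.94 (edgeR adjusted p = 0.0205).

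Total counts ran from 22250202 to 30739574 per library, and at total-count scaling 65.5% of calls over all genes were upward, against 49.2% with the main scaling. Of 10 hepatocyte markers all were measured, 7 called lower and 1 higher. Their summed level was 28656 to 31827 CPM in DMSO and 16796 to 18986 CPM in oridonin. For this and the marker lists below, the shares over all tested genes were 20.6% called higher and 21.3% lower. Traces of other cells differed between the treatments. The 12 B and plasma cell markers summed to 4.65, 14.01 and 21.7 CPM in DMSO and 42.9, 96.8 and 97.8 CPM in oridonin, with 3 of 9 tested called higher, 1 lower and MS4A1 at 0. Of these sums CD79A, named after its values were seen, gave 1.37, 1.16 and 1.46 CPM in DMSO and 16.9, 15.4 and 20.7 CPM in oridonin, and in oridonin most of the rest came from immunoglobulin genes. The 15 gut epithelium markers summed to 2.32, 8.64 and 8.51 CPM in DMSO and 15.04, 28.4 and 26.7 CPM in oridonin, with 8 of 10 tested called higher. Endothelial markers (7, with EMCN at 0) summed to 6.13 to 8.18 CPM in DMSO and 8.30 to 8.92 in oridonin, with 1 called higher and 2 lower. The 8 fibroblast markers, of which 1 was called higher and 1 lower, summed to 59.2 to 68.6 and 36.3 to 36.6 CPM, most of it PDGFRB. The 7 macrophage markers summed to 679 to 712 and 420 to 451 CPM, nearly all of it LYZ, with 1 called lower and MARCO at 0.

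The order of GSTP1 over the libraries was that of the B and plasma cell sum but not that of the gut epithelium sum. The gut sum was 8.64 and 8.51 CPM in DMSO libraries 2 and 3, and 28.4 and 26.7 CPM in oridonin libraries 2 and 3. The source of the GSTP1 transcripts was not tested. Within DMSO that sum varied 4.67-fold and GSTP1 19.2-fold, against 1.12-fold for GSTA1 and 1.26-fold for GSTA2. Within oridonin the sum varied 2.28-fold and the gut sum 1.89-fold, against 1.12-fold for GSTA1 and 1.23-fold for GSTA2. Oridonin library 1 had the lowest of these sums among the oridonin libraries. Set alone against the 3 DMSO libraries, it gave a log2 fold change of 1.45 for GSTA1 and 2.18 for GSTA2. Oridonin library 1 still held more of both marker sums than any DMSO library, so this comparison cannot separate the treatment from such cells. The part of such cells in these results was not tested. That comparison was chosen after the data were seen, and in it the lone library is assumed to vary like the others. In the same comparison MGST1 was at 0.46, GSTM4 at -0.35 and GSTO1 at 0.17, and the GSTO1 call was lost. In bulk samples a change in the share of cells that hold a transcript cannot be told apart from a change in level per cell.

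**Figure D4:**
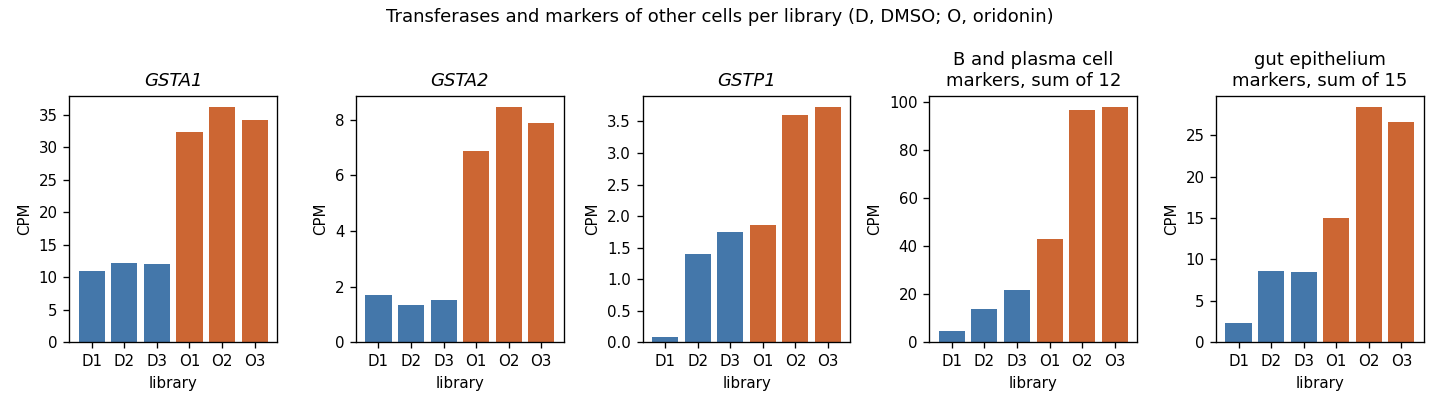
CPM per library of GSTA1, GSTA2 and GSTP1 and the summed CPM of markers of B and plasma cells and of gut epithelium (D1 to D3, DMSO; O1 to O3, oridonin), each bar 1 library. GSTA1 and GSTA2 form a low and a high set by treatment, while GSTP1 and the marker sums also differ between libraries of the same treatment.

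Neighbouring genes within 100 kb were compared from the deposited coordinates. Next to GSTA2, TMEM14A on the opposite strand rose by a log2 fold change of 0.24 ± 0.07 (SE, edgeR adjusted p = 0.00898). Beside GSTA4, the gene annotated as 7SK was called higher, with 0.638 ± 0.355 CPM under DMSO and 1.82 ± 0.185 under oridonin (SD, n = 3). The 7SK call was not followed over the alternative settings. AMPD2, an adenosine monophosphate deaminase upstream of GSTM4, rose at 0.20 while GSTM4 fell, and this call was lost without DMSO replicate 2 (0.18, edgeR adjusted p = 0.0539). TMEM139 beside GSTK1 and the methyltransferase gene SETD7 beside MGST2 were called higher at 0.79 and 1.25 from means of 1.18 and 1.35 CPM in DMSO. ALDH9A1 beside MGST3 and MIR4482 beside GSTO1 were not called. MGST2 overlaps the tested genes MAML3 and H3P16 on the opposite strand, each under 1 CPM, and no tested gene overlapped the other members apart from GSTM4.

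Protein-coding genes whose mean reached 10 CPM in either treatment were compared with GSTA1. Over the 6 libraries, the log2 CPM of 881 of these 9174 genes had a Pearson r above 0.95 with GSTA1. The 5 highest were DAD1, TOP1, AKR1B10, CTTN and KRTAP3-1, with r from 0.9987 to 0.9996. Of these, AKR1B10, an aldo-keto reductase, and KRTAP3-1 changed by a similar amount, at log2 fold changes of 1.48 and 1.74, and the others by 0.33 to 0.47. KRTAP3-1 averaged 4.85 CPM in DMSO and 16.2 in oridonin, so it entered only through the oridonin libraries. Among the listed transferases r with GSTA1 was 0.984 for MGST1, 0.932 for GSTO1 and -0.954 for GSTM4. For MGST3, GSTK1, GSTA4 and MGST2 it was 0.671, 0.230, -0.03 and -0.864. GSTA2 stayed under 10 CPM in both means and was not compared. The points share treatment and library, and r is given as a description.

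Genes that supply glutathione were mostly higher. Of 9 in the list of synthesis and recycling, 6 were called higher and 2 lower, beside 20.6% and 21.3% of all tested genes. The lower calls were thus near the share over all genes. The median log2 fold change of the 9 was 0.34. GCLM and GCLC, the modifier and catalytic subunits of the enzyme that limits glutathione synthesis, rose: GCLM went from 45.1 ± 1.28 to 83.8 ± 3.09 CPM, and GCLC reached 160 ± 4.09 from 103 ± 3.88 CPM (SD, n = 3). SLC7A11, which imports cystine, rose at 0.63, and GSR, which reduces oxidised glutathione, at 0.34. OPLAH and GGCT, which act in glutathione breakdown and recycling, were called lower at -0.36 and -0.38. The GGCT call was lost without DMSO replicate 2 (-0.27, edgeR adjusted p = 0.118) or oridonin replicate 2 (-0.28, edgeR adjusted p = 0.0972).

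In conjugate export and the mercapturate pathway, which trims exported conjugates, 8 of 20 tested genes were called higher and 4 lower, with a median of 0.16. Over all tested genes, 20.6% were called higher and 21.3% lower, so the lower calls were near that share. The efflux pumps ABCC2, ABCC3 and ABCC1 rose at 0.76 ± 0.05, 0.63 ± 0.05 and 0.44 ± 0.05 (SE). ABCC2, at the canalicular face of hepatocytes, went from 271 ± 1.22 to 458 ± 23.6 CPM (SD, n = 3). GGT5, a gamma-glutamyl cleaving enzyme, rose from 4.56 ± 0.591 to 20.2 ± 2.83 CPM (SD, n = 3). Among peptidases that trim conjugates further, DPEP1 and ANPEP fell, DPEP1 to 23.3 ± 1.30 CPM from 45.3 ± 3.49 and ANPEP to 163 ± 4.10 CPM from 245 ± 9.78 (SD, n = 3), while LAP3 was not called at -0.01 and DPEP2 and DPEP3 had too few counts to be tested.

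Other enzymes that use glutathione were split, with 4 of 14 tested genes higher and 4 lower and a median of -0.06, shares near the 20.6% and 21.3% over all tested genes. The glutaredoxins GLRX and GLRX3 rose at 0.71 and 0.26, GLRX5, a mitochondrial member, fell at -0.45, and GLRX2 was not called at 0.12. The peroxidases went different ways: GPX3, GPX7 and GPX4 fell at -0.58, -0.77 and -0.34, GPX2 rose at 0.18 and GPX1 was not called at 0.04. GPX1, GPX2, GLRX2 and LAP3 were named after their values were seen.

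Of 16 regulators of transferase genes, 4 were called higher and 5 lower, with a median of 0.00, against 20.6% and 21.3% of all tested genes. The transcript of NRF2 itself, NFE2L2, fell from 226 ± 9.68 to 165 ± 15.9 CPM, and that of its inhibitor KEAP1 rose from 110 ± 5.47 to 142 ± 9.05 CPM (SD, n = 3). BACH1, a repressor at antioxidant response elements, rose at 0.39 and the aryl hydrocarbon receptor gene AHR at 0.47. CEBPA, CEBPB and RXRA, which encode factors active in hepatocytes, fell at -0.57, -0.44 and -0.41, while HNF4A was not called at -0.04. Transcript levels of these factors do not measure their activity. Among 16 tested NRF2 targets outside glutathione metabolism, 12 were called higher and 1 lower, with a median of 0.43. The 4 of them with the smallest p were PTGR1, TXNRD1, AKR1B10 and EPHX1, at 2.15, 1.45, 1.48 and 1.102. HMOX1, TKT and FTH1, named after their values were seen, were not called, at -0.05, 0.08 and -0.19. PIR, called lower at -0.22, was not called in 9 of 16 alternative settings, among them those without DMSO replicate 1 (-0.17), oridonin replicate 1 (-0.24) or oridonin replicate 2 (-0.19).

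**Figure D5:**
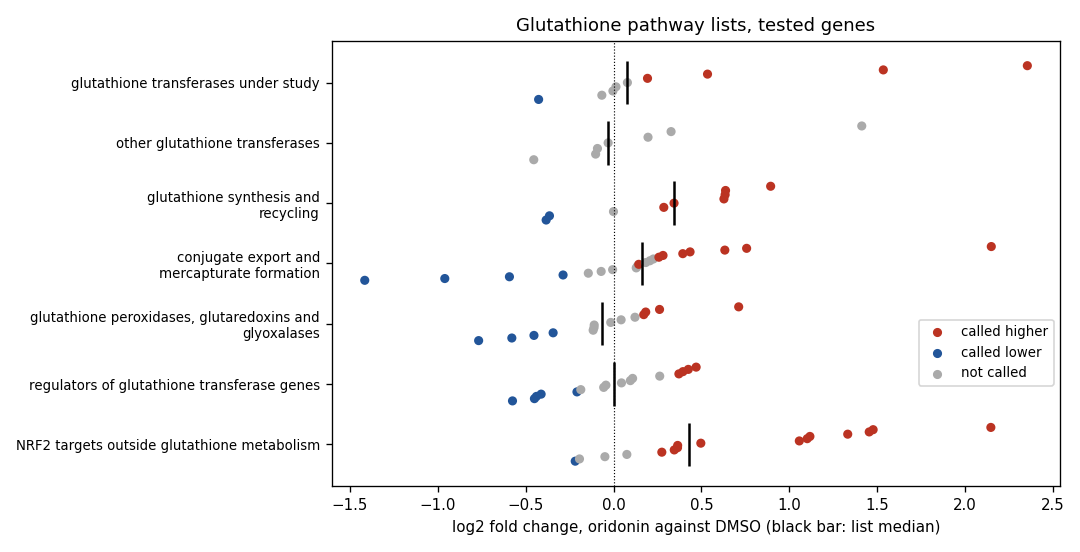
Log2 fold change of every tested gene in the transferase list and 6 related lists; each dot is 1 gene, coloured by the edgeR call, and the black bar is the list median. The medians of synthesis and recycling (0.34) and of NRF2 targets (0.43) lie to the right of that of the 9 transferases (0.08).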

How the data were processed

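Of the authors' processing, the sources used here do not state the read length, the aligner, the counting program or whether strand was used. The submitters' processing notes name the build hg38 and DESeq2 1.10.1. The deposited table of raw counts held whole numbers for 60504 Ensembl genes in 6 libraries. The deposited table of log2 FPKM values by the authors held 18404 genes, exactly those with at least 1 count in every library, with no pseudocount. Columns were tied to libraries by the names in the labels. Counts were fitted over all genes that passed filterByExpr (15116) with edgeR 4.0.16 in R 4.3.3 (TMM scaling, glmQLFit with robust estimation, glmQLFTest, treatment as the only term), with Benjamini-Hochberg adjustment over all of them and a threshold of 0.05. SE is the size of the log2 fold change divided by the square root of F. The 95% intervals are approximate, at 1.96 SE to each side, and can differ from the test. Fits were tested on simulated data. Alternatives used DESeq2 1.42.0, limma 3.58.1, other scalings and filters, a replicate term, left-out libraries and summed paralogs. Floors of 3 counts cover counting error only, since the labels name no molecular identifiers. Each library counted as 1 sample, since no pair within a treatment matched to within counting noise. Named genes were all 9 transferases, the other transferases, up to 4 called genes of each further list in the direction with more calls and up to 2 in the other, a few fixed regulators and suppliers, and neighbours within 100 kb. Members, 13 lists (163 of 164 symbols matched) and marker lists were chosen with earlier results of these data known, so they are no independent evidence. Some genes counted in these lists are not reported by name here.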

Additional observations from a re-analysis of the deposited data

How the results depend on the processing

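The 4 transferases called higher and the 1 called lower kept these calls in 15 other settings, where GSTA1 ranged from 1.48 to 1.62. Leaving out 1 library at a time gave 4 higher and 1 lower each time. After the data were seen, oridonin library 1 alone was set against DMSO, which called 3 higher and 1 lower, with 1593 genes higher and 1986 lower over all genes tested; fewer libraries entered. Among the transferases that were not called, the log2 fold changes of GSTA4, GSTK1, MGST2 and GSTM3 changed sign. Those of MGST3 and the other tested transferases that were not called kept theirs. GSTA4 was 0.076 with total counts only, 0.014 with upper quartile scaling, 0.014 with all genes with at least 1 count, 0.0038 at 1 CPM in every library, 0.013 on log2 FPKM, 0.011 on log2(FPKM + 1), -0.10 to 0.054 leaving out 1 library, and 1.07 as the alpha class sum. GSTK1 was -0.015 to 0.053 leaving out 1 library and -0.043 with oridonin library 1 alone, MGST2 0.013 and GSTM3 0.050 with total counts only, and GSTM3 -0.099 to 0.0054 leaving out 1 library. Among the other transferases, 1 was called lower at 1 CPM in every library, 0 to 1 higher and 0 to 1 lower leaving out 1 library, and with the replicate block 1 higher (GSTP1 at 1.51, edgeR adjusted p = 0.000841) and 1 lower (GSTM2). The synthesis list had 1 called lower on log2 FPKM, on log2(FPKM + 1) and with oridonin library 1 alone, and 1 to 2 leaving out 1 library. Peroxidases and their kin had 2 higher with oridonin library 1 alone. NRF2 targets had 0 lower with total counts only, DESeq2, log2 FPKM, log2(FPKM + 1) and oridonin library 1 alone, 0 to 1 leaving out 1 library, and 2 with the replicate block. The cause of these changes was not tested. Same-numbered libraries correlated at 0.194, 0.0651 and 0.173 in their deviations from the group means, each best with its own number, but not all above 0.1, so the numbers were not taken as pairs; the block raised the calls over all genes from 3118 to 3850 higher and from 3214 to 3839 lower. Depth limits the genes under about 1 CPM.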
